A study of Homo sapiens with 3 samples.

Results

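NRF2 antioxidant and detoxification genes were described in 3 single RNA-seq libraries of MCF10Ca1h cells, a tumour-forming human line of the MCF10 breast epithelial series. The genes were 34 listed symbols of the NRF2 pathway, and 33 of them had a gene ID in the deposited tables, out of 56632 IDs in all. All 33 reached 1 CPM (a gene's reads scaled to a common library size) in at least 1 library, as did 13312 genes of the whole table. SRXN1 had no matched ID, so its expression was not analysed, and it entered only the promoter search below.

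The GSK484 library came from cells given GSK484 for 72 h. GSK484 inhibits PADI4, an enzyme that converts arginine residues of proteins into citrulline. The CON library was made after 72 h with a control compound, and the NT library from untreated cells. All 3 were grown in DMEM/F12 medium with horse serum, the doses are not given, and NT has no time on its label. The study asks how PADI4 acts on stem-like breast cancer cells. With 1 library of 1 line per group there was no replicate, so no test between conditions was possible. Every interval below is a 95% interval for counting error alone, and differences between cultures are not in it.

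NRF2, encoded by NFE2L2, is a transcription factor that cells hold at a low level because KEAP1 delivers it to a ubiquitin ligase. Oxidants and electrophiles modify KEAP1, NRF2 then accumulates, pairs with a small MAF protein and binds antioxidant response elements near its target genes. Its targets make and recycle glutathione and thioredoxin, supply NADPH, reduce quinones and carbonyls, conjugate and export foreign compounds, and handle haem and iron. In epithelial cells this programme protects against reactive chemicals, and many tumours carry changes that keep it active.

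The element itself is shown for 5 of the genes, since it is the sequence that NRF2 is known to bind. The promoter table of RefSeq (GRCh38.p14) gives 250 bases before to 50 after each start, and it held 26 of the 34 listed genes. These windows were searched on both strands for the core TGACNNNGC. Capitals mark the core, or its reverse complement where the match lies on the opposite strand, with 20 bases on each side, 5′ to 3′ along the gene.
GCLM, chr1:93909436-93909484, minus strand: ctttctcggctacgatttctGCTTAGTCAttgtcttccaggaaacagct
GPX2, chr14:64942839-64942887, minus strand: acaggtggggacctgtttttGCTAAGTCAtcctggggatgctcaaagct
TXNRD1, chr12:104215660-104215708, plus strand: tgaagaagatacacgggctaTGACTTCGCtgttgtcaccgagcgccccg
ME1, chr6:83431160-83431208, minus strand: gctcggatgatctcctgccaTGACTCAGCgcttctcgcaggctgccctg
GSTP1, chr11:67583726-67583774, plus strand: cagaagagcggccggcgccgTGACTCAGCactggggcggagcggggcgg
The core lies 34 bases before the start in GCLM, 122 in GPX2, 99 in TXNRD1, 137 in ME1 and 66 in GSTP1. The ME1 and GSTP1 cores shown also hold TGANTCA, the AP-1 motif.

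Of the 26 listed genes with a promoter entry, 9 held the core (34.6%), against 16.1% of 27305 genes in the table. The others were PGD, EPHX1, KEAP1 and CBR1. Counted by promoter, the share was 10 of 37 among listed genes (27.0%) and 13.3% of all 35116 promoters. A match describes these letters only, and a window without one says nothing of more distant elements.

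Levels of the 33 genes, in deposited TPM (transcript abundance, a value per transcript length), spanned nearly 3 orders of magnitude within each library. Their summed TPM was 9978 TPM in GSK484, 10469 TPM in CON and 9922 TPM in NT. FTH1 was the highest and ABCC2 the lowest in every library. FTH1, the heavy subunit of the iron store ferritin, had rank 114 of all genes by TPM in GSK484, rank 107 in CON and rank 128 in NT. GSTP1, TXN, TKT and PRDX1 filled the next ranks in all 3 libraries, and the order among the 33 genes moved by at most 1 rank between libraries.

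**Figure D1:**
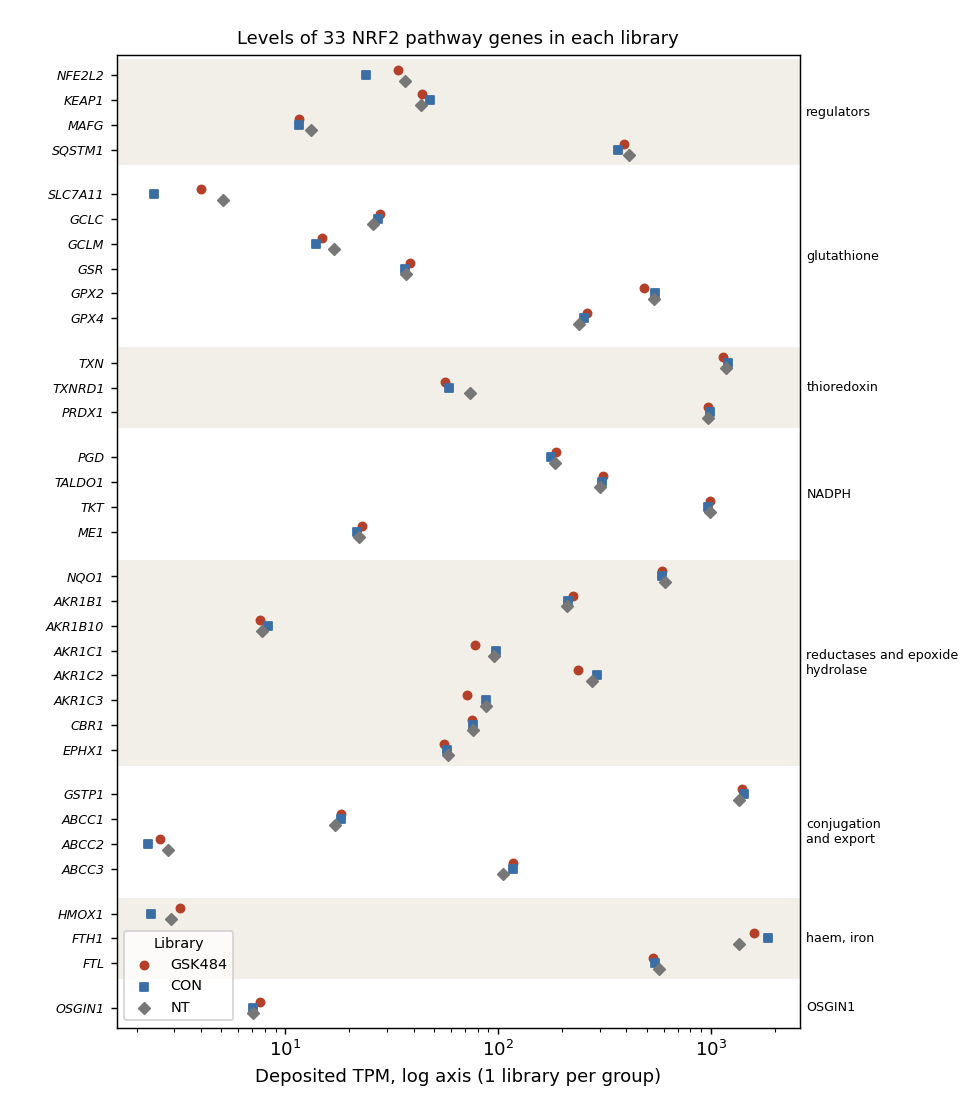
Deposited TPM of each of the 33 genes on a log axis, grouped by role, with 1 point per library (GSK484 circles, CON squares, NT diamonds). Most genes keep nearly the same level in all 3 libraries, while NFE2L2 and SLC7A11 are lowest in CON, and AKR1C1, AKR1C2 and AKR1C3 are lowest in GSK484.

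Against the control compound, 3 genes were higher and 4 lower in the GSK484 library by a size rule: a log2 fold of CPM of at least 0.32 either way, with the larger CPM at least 1 and an interval that excluded no difference. Of all 13199 genes tested the same way, 9.0% were higher and 4.45% lower. The 3 higher genes were NFE2L2, SLC7A11 and HMOX1, or 9.09% of the 33, near the share of all genes. The 4 lower genes were FTH1 and the related AKR1C1, AKR1C2 and AKR1C3. Some reads of AKR1C2 can also match AKR1C1 or AKR1C3, so these 3 related genes are not fully separate observations. By counting error alone, 3 genes were higher and 23 lower, against 26.9% and 27.4% of all genes tested. Lower differences beyond counting error were commoner among abundant genes, at 42.2% of the 3847 genes of at least 50 CPM. The median log2 fold of CPM was -0.09 over the 33 genes and -0.01 over all genes tested.

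The direction of many small differences depended on the scale. Of the 28 genes below 0 in CPM, 14 were below 0 under each of 5 other scalings or units, and of the 5 above 0, 4 stayed above. On deposited TPM, whose median over all genes was 0.10, 16 of the 33 genes lay below 0 and the median of the 33 was 0.0050. With that all-gene median subtracted from the TPM folds, 27 lay below 0 and the median of the 33 was -0.09. Once the trend of log2 folds on GC content and effective length was removed, 22 lay below 0 and the median was -0.04. Over all genes, the calls split into 1188 higher and 588 lower in CPM, 1936 and 402 in TPM, and 698 and 554 with the trend removed.

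**Figure D2:**
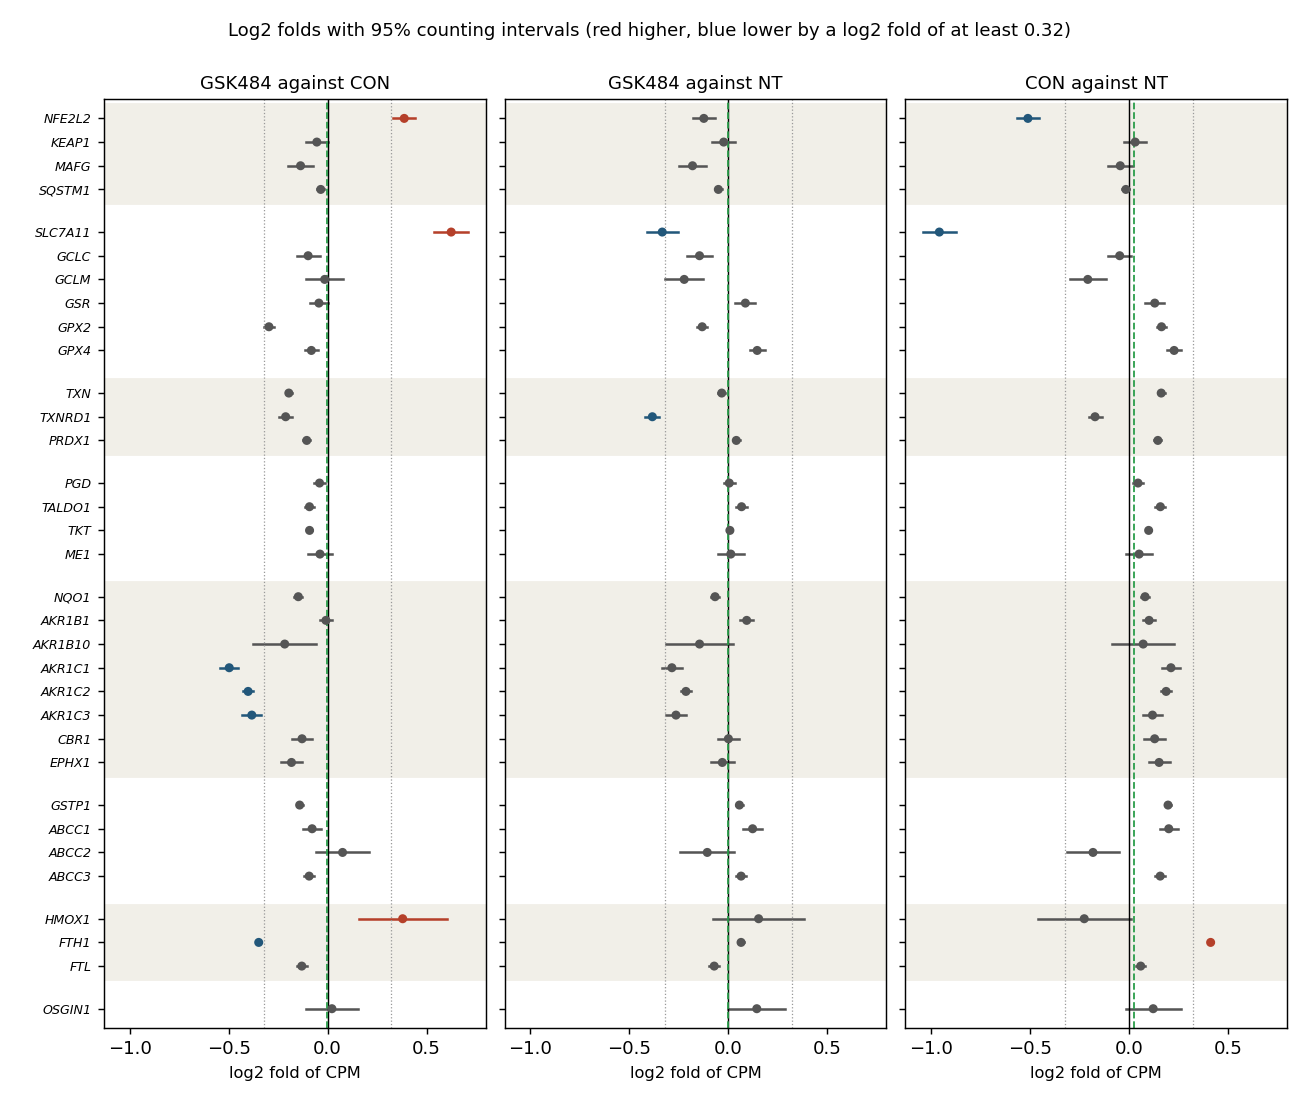
Log2 folds of CPM with 95% counting intervals for each gene, with GSK484 against CON on the left, GSK484 against NT in the middle and CON against NT on the right. Dotted lines mark log2 folds of 0.32 either way, the dashed line marks the median of all genes tested, and red or blue points are higher or lower by the size rule. NFE2L2, SLC7A11 and HMOX1 are red and the 3 AKR1C genes and FTH1 blue in the left panel, SLC7A11 and TXNRD1 are blue in the middle panel, and FTH1 is red and NFE2L2 and SLC7A11 blue in the right panel.

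Among the regulators, the gene of NRF2 itself differed most. NFE2L2 (ENSG00000116044) was at 33.8 TPM in GSK484, 23.9 TPM in CON and 36.4 TPM in NT. CON was the lowest library, and GSK484 lay nearer to NT than to CON. On the log2 scale of CPM the differences were 0.39 for GSK484 against CON (0.33 to 0.44), -0.12 for GSK484 against NT (-0.18 to -0.07) and -0.51 for CON against NT (-0.57 to -0.45). The first of these is 1.31-fold, and it was 0.38 on the log2 scale with the GC and length trend removed. NFE2L2 expected counts were not whole, so part of its reads were divided between genes.

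The other regulators differed by less. KEAP1, the adaptor that marks NRF2 for destruction, was at 43.8 TPM in GSK484, 47.9 TPM in CON and 43.5 TPM in NT. GSK484 differed from CON by a log2 fold of CPM of -0.05, with an interval that included 0 (-0.11 to 0.0007). KEAP1 effective length differed by up to 1.17-fold between libraries, which moves TPM but not CPM. SQSTM1, the autophagy receptor p62 that binds KEAP1, was abundant at 389 TPM in GSK484, 367 TPM in CON and 411 TPM in NT. Against CON, the SQSTM1 log2 fold of CPM in GSK484 was -0.03 (-0.05 to -0.02). It was 0.08 on the TPM scale, or -0.01 with the all-gene TPM median subtracted. MAFG, a small MAF partner of NRF2, was at 11.6 TPM in GSK484, 11.5 TPM in CON and 13.2 TPM in NT, with a log2 fold of CPM of -0.14 against CON (-0.20 to -0.07) and -0.18 against NT (-0.25 to -0.11). MAFG was below NT on every scale run, while its sign against CON turned on the TPM scale. With the all-gene TPM median subtracted, MAFG was at -0.09 against CON.

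Of the genes that make and use glutathione, 1 of 6 was higher in GSK484 than in CON by the size rule and none lower. SLC7A11 (ENSG00000151012), the cystine importer that feeds glutathione synthesis, was at 4.02 TPM in GSK484, 2.41 TPM in CON and 5.09 TPM in NT. Its 3 libraries lay in the order CON, GSK484, NT, with every pair beyond counting error. SLC7A11 had a log2 fold of CPM of 0.62 for GSK484 against CON (0.54 to 0.71), -0.33 for GSK484 against NT (-0.41 to -0.26) and -0.96 for CON against NT (-1.04 to -0.87). These are 1.54-fold higher than CON, 1.26-fold lower than NT and, for CON, 1.94-fold lower than NT. SLC7A11 moved with the GC and length trend. With that trend removed its 3 log2 folds were 0.24, -0.05 and -0.30 in the same order, and none passed the size rule.

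Glutamate-cysteine ligase, the first step of glutathione synthesis, consists of a catalytic subunit, GCLC, and a modifier subunit, GCLM. GCLC was at 27.9 TPM in GSK484, 27.1 TPM in CON and 25.7 TPM in NT. GCLM was at 14.9 TPM in GSK484, 13.9 TPM in CON and 16.8 TPM in NT. Neither subunit passed the size rule in any comparison. The log2 fold of CPM for GSK484 against NT was -0.15 for GCLC (-0.21 to -0.08) and -0.22 for GCLM (-0.32 to -0.13). The GCLC sign turned on the TPM scale, where its effective length differed by 1.20-fold between libraries.

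GPX2, a glutathione peroxidase of epithelia, had the largest difference among the other glutathione genes. GPX2 was at 485 TPM in GSK484, 547 TPM in CON and 539 TPM in NT, so GSK484 was the lowest library. In CPM the log2 fold was -0.30 against CON (-0.32 to -0.27), just under the size rule, and -0.13 against NT (-0.16 to -0.11). GPX2 was lower in GSK484 than in CON on every scale run, at -0.15 with the GC and length trend removed. GPX4, the peroxidase of lipid peroxides, was at 260 TPM in GSK484, 253 TPM in CON and 239 TPM in NT. GSR, which regenerates reduced glutathione, was at 38.6 TPM in GSK484, 36.6 TPM in CON and 36.7 TPM in NT. For GPX4 and GSR the log2 folds of CPM against CON were -0.08 and -0.04, and both turned above 0 on the TPM scale. With the all-gene TPM median subtracted, GPX4 was at -0.06 and GSR at -0.02.

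All 3 genes of the thioredoxin system were lower in GSK484 than in CON beyond counting error, though none by the size rule, and PRDX1 turned above 0 once the GC and length trend was removed. TXN, thioredoxin itself, was at 1134 TPM in GSK484, 1208 TPM in CON and 1182 TPM in NT, with a log2 fold of CPM of -0.20 against CON (-0.21 to -0.18). PRDX1, a peroxiredoxin that thioredoxin reduces, was at 965 TPM in GSK484, 988 TPM in CON and 963 TPM in NT, with a log2 fold of CPM of -0.11 against CON (-0.12 to -0.09). With the trend removed, PRDX1 was at 0.04 and TXN at -0.12.

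TXNRD1 (ENSG00000198431), the reductase that keeps thioredoxin active, was the member of this system that differed most from untreated cells. TXNRD1 was at 56.4 TPM in GSK484, 58.8 TPM in CON and 73.9 TPM in NT. Both treated libraries lay below NT and the GSK484 library was the lowest. TXNRD1 had a log2 fold of CPM of -0.38 for GSK484 against NT (-0.42 to -0.35), -0.21 for GSK484 against CON (-0.25 to -0.18) and -0.17 for CON against NT (-0.20 to -0.14). With the trend removed these were -0.29, -0.25 and -0.04, so the first no longer passed the size rule. In TPM, CON against NT was -0.33 and passed it.

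The 4 genes of the pentose phosphate pathway and malic enzyme, routes that supply NADPH, differed little in TPM between the 3 libraries. TKT, the transketolase of the pentose phosphate pathway, was at 993 TPM in GSK484, 972 TPM in CON and 990 TPM in NT. TALDO1, the transaldolase of that pathway, was at 310 TPM in GSK484, 307 TPM in CON and 301 TPM in NT. PGD, which makes NADPH there, was at 186 TPM in GSK484, 177 TPM in CON and 185 TPM in NT. ME1, the cytosolic malic enzyme, was at 23.0 TPM in GSK484, 21.7 TPM in CON and 22.1 TPM in NT. For GSK484 against CON the 4 log2 folds of CPM ran from -0.09 to -0.04, and all 4 turned above 0 on the TPM scale. With the all-gene TPM median subtracted, the 4 ran from -0.08 to -0.02. In CPM, the folds for GSK484 against NT ran from 0.0048 to 0.07, and for CON against NT from 0.05 to 0.16. ME1 depended on the GC and length trend: with it removed, its log2 fold was -0.18 for GSK484 against CON, 0.16 for GSK484 against NT and 0.34 for CON against NT, the last past the size rule.

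The reductases held the lowest folds of the whole set against the control compound, all in the AKR1C family. These enzymes reduce steroids, prostaglandins and other carbonyl compounds. AKR1C1 (ENSG00000187134) was at 78.2 TPM in GSK484, 97.7 TPM in CON and 95.5 TPM in NT. AKR1C2 (ENSG00000151632) was at 236 TPM in GSK484, 290 TPM in CON and 276 TPM in NT. AKR1C3 (ENSG00000196139), also known for making androgens and prostaglandin F, was at 71.1 TPM in GSK484, 87.2 TPM in CON and 87.8 TPM in NT. In each of the 3 genes GSK484 was the lowest library, and CON and NT lay nearer to each other than either to GSK484 in TPM.

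The log2 fold of CPM for GSK484 against CON was -0.50 for AKR1C1 (-0.54 to -0.45), -0.40 for AKR1C2 (-0.43 to -0.38) and -0.38 for AKR1C3 (-0.43 to -0.34). Against NT it was -0.29 for AKR1C1 (-0.33 to -0.24), -0.21 for AKR1C2 (-0.24 to -0.19) and -0.26 for AKR1C3 (-0.32 to -0.21), none of them past the size rule. All 3 genes were lower in GSK484 than in CON and than in NT on every scale run. After removal of the GC and length trend, the folds against CON were -0.49, -0.47 and -0.40 for AKR1C1, AKR1C2 and AKR1C3. With that trend removed, GSK484 against NT was -0.24, -0.12 and -0.20 in the same order. CON against NT was then 0.25, 0.34 and 0.20, the AKR1C2 value past the size rule, so CON no longer lay nearer to NT than GSK484 did. In deposited TPM the folds of GSK484 against CON were -0.32, -0.29 and -0.29, short of the size rule, and -0.42, -0.39 and -0.39 once the TPM median of all genes was subtracted.

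The AKR1C genes lie together on chromosome 10 and are near copies, so their reads can be divided between them. A stretch of 125 coding bases, the length of each read of a pair, is printed below to show where a single read cannot tell AKR1C1 from AKR1C2. It covers coding positions 516 to 640, from GENCODE release 29 (GRCh38), 5′ to 3′, and capitals mark the 10 positions at which AKR1C3 differs from the other two.
AKR1C1: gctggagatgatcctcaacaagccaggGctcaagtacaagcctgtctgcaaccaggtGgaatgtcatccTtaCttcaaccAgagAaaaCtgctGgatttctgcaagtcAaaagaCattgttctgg
AKR1C2: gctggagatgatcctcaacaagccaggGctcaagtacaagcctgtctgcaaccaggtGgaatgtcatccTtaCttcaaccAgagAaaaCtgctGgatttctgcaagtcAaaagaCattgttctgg
AKR1C3: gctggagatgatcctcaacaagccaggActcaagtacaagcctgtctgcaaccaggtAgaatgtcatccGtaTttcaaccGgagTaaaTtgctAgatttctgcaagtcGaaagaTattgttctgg
Over their 972 coding bases, AKR1C1 and AKR1C2 differ at 19 positions and share 10.7% of 848 windows of that length in full. AKR1C1 and AKR1C3 differ at 83 positions and share none, and AKR1C2 and AKR1C3 differ at 87 positions and share 5.54%.

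Summing the expected counts of the 3 genes removes any division of reads among these 3. The sum was 449 CPM in GSK484, 599 CPM in CON and 529 CPM in NT. GSK484 was the lowest of the 3 libraries and CON the highest. The log2 fold of the sum was -0.42 for GSK484 against CON (-0.44 to -0.40), -0.24 for GSK484 against NT (-0.26 to -0.21) and 0.18 for CON against NT (0.16 to 0.20).

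The remaining reductases and the epoxide hydrolase did not pass the size rule in any comparison. NQO1, the quinone reductase often read as a marker of NRF2 activity, was at 588 TPM in GSK484, 589 TPM in CON and 611 TPM in NT. NQO1 had a log2 fold of CPM of -0.15 against CON (-0.17 to -0.13) and -0.07 against NT (-0.09 to -0.05), and -0.05 against CON with the trend removed. EPHX1, the microsomal epoxide hydrolase, was at 55.4 TPM in GSK484, 57.6 TPM in CON and 58.1 TPM in NT. CBR1, a carbonyl reductase, was at 75.3 TPM in GSK484, 76.4 TPM in CON and 76.4 TPM in NT. For GSK484 against CON, EPHX1 was at -0.18 and CBR1 at -0.13 on the log2 scale of CPM, and both stayed below 0 on every scale run.

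AKR1B1, the aldose reductase, was at 224 TPM in GSK484, 213 TPM in CON and 210 TPM in NT, and its log2 fold of CPM against CON was -0.01 (-0.04 to 0.02). AKR1B10, its close relative, was low at 7.62 TPM in GSK484, 8.27 TPM in CON and 7.73 TPM in NT. The AKR1B10 fold against CON, at -0.22, had a wide interval (-0.38 to -0.06).

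**Figure D3:**
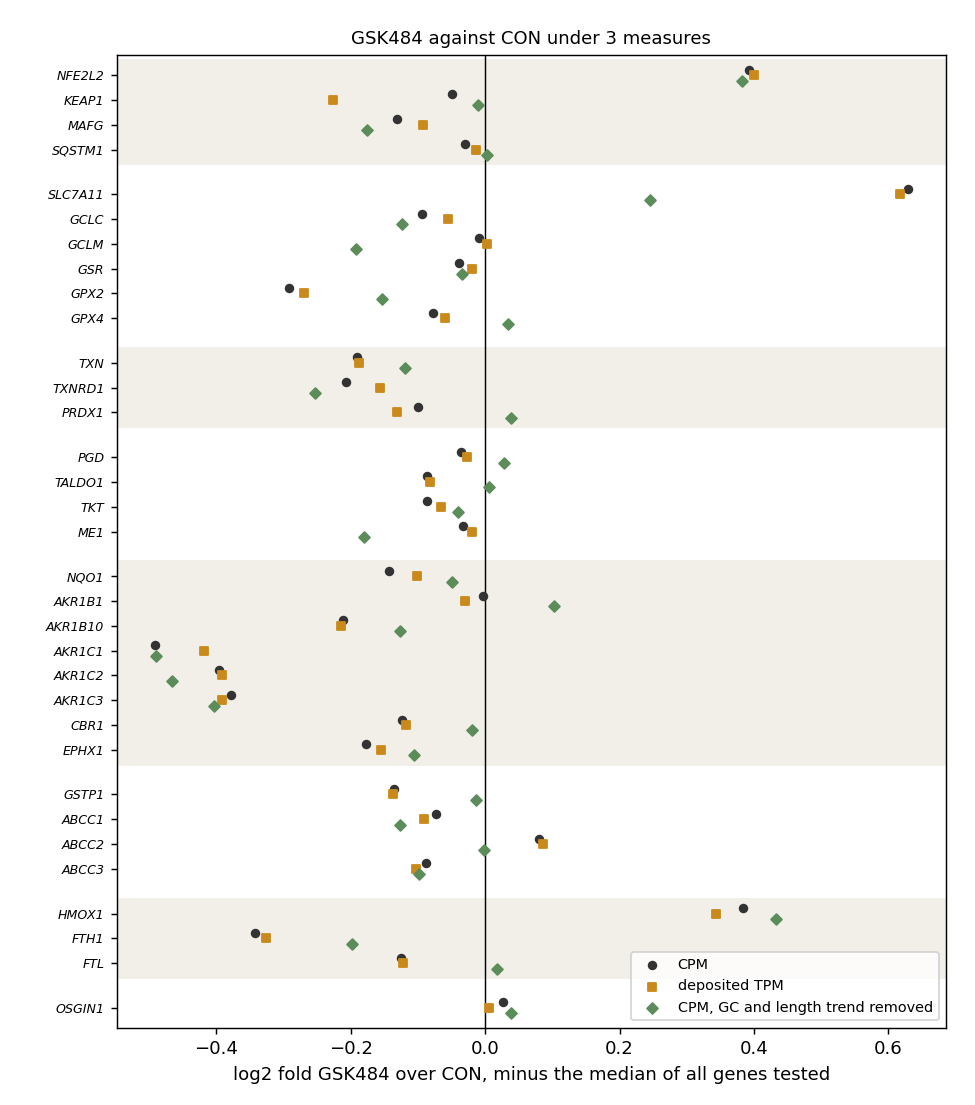
Log2 fold of GSK484 over CON for each gene from CPM (circles), deposited TPM (squares) and CPM with the GC and length trend removed (diamonds), each minus the median of all genes tested on that measure. NFE2L2 and HMOX1 lie right of 0 and the AKR1C genes left of 0 at similar sizes on all 3 measures, while SLC7A11 and FTH1 lie nearer to 0 once the trend is removed.

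Conjugation and export genes showed small differences. GSTP1, a glutathione transferase, was at 1393 TPM in GSK484, 1433 TPM in CON and 1351 TPM in NT. The exporters ABCC1, ABCC2 and ABCC3 carry conjugates out of the cell. ABCC3 was at 117 TPM in GSK484, 118 TPM in CON and 106 TPM in NT, and ABCC1 at 18.3 TPM in GSK484, 18.2 TPM in CON and 17.0 TPM in NT. ABCC2 was at 2.58 TPM in GSK484, 2.26 TPM in CON and 2.81 TPM in NT. No gene of the 4 passed the size rule in any comparison. For GSK484 against CON the log2 folds of CPM ran from -0.14 for GSTP1 to 0.08 for ABCC2, whose interval included 0 (-0.06 to 0.21). GSTP1 was below 0 on every scale run, at -0.01 with the trend removed, while ABCC1 turned above 0 in TPM and ABCC2 below 0 with the trend removed. With the all-gene TPM median subtracted, ABCC1 was at -0.09.

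Haem and iron genes went in different directions. HMOX1 (ENSG00000100292), the inducible haem oxygenase, was low at 3.20 TPM in GSK484, 2.33 TPM in CON and 2.90 TPM in NT. Its log2 fold of CPM was 0.38 for GSK484 against CON (0.16 to 0.60), while those for GSK484 against NT, at 0.15 (-0.08 to 0.38), and for CON against NT, at -0.23 (-0.46 to 0.01), had intervals that included 0. With the trend removed these 3 folds were 0.43, 0.06 and -0.37, and the CON against NT one then passed the size rule. A difference between GSK484 and NT was therefore not detectable for HMOX1 at this depth.

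FTH1 (ENSG00000167996) was at 1589 TPM in GSK484, 1863 TPM in CON and 1359 TPM in NT. FTH1 effective length differed by up to 1.12-fold between libraries, which moves TPM but not CPM. For GSK484 against NT the FTH1 log2 fold was 0.23 in TPM and 0.06 in CPM. CON was the highest library, and GSK484 lay between CON and NT. FTH1 had a log2 fold of CPM of -0.35 for GSK484 against CON (-0.36 to -0.33), 0.06 for GSK484 against NT (0.05 to 0.08) and 0.41 for CON against NT (0.40 to 0.43). With the GC and length trend removed these were -0.20, 0.0007 and 0.20, and none passed the size rule. Against CON, the FTH1 fold in GSK484 was also short of the size rule when scaled by total count, at -0.31, and in TPM, at -0.23. Of the reads given to FTH1 and its annotated pseudogenes together, the pseudogenes took 0.84% in GSK484, 0.79% in CON and 0.76% in NT. FTL, the light ferritin subunit, was at 534 TPM in GSK484, 544 TPM in CON and 572 TPM in NT. Its log2 fold of CPM was -0.13 against CON (-0.15 to -0.11), an interval apart from that of FTH1, and 0.02 with the trend removed.

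OSGIN1, an oxidative stress induced inhibitor of growth, was at 7.57 TPM in GSK484, 7.04 TPM in CON and 7.07 TPM in NT. Its log2 fold of CPM for GSK484 against CON was 0.02 (-0.11 to 0.15).

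Against untreated cells, no gene was higher and 2 were lower in GSK484 by the size rule, SLC7A11 and TXNRD1, whose values are given above. Of all 13209 genes tested, 5.09% were higher and 7.38% lower. Beyond counting error, 10 were higher and 14 lower, against 27.3% and 29.5% of all genes tested. The median log2 fold was -0.03 over the 33 genes and -0.0028 over all genes. The largest positive folds of CPM beyond counting error were 0.15 for GPX4 (0.11 to 0.18) and 0.14 for OSGIN1 (lower bound just above 0, upper bound 0.29). With the trend removed, GPX4 was at -0.03 and OSGIN1 at 0.01.

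NFE2L2, SLC7A11 and FTH1 differed from NT by more in the CON library than in the GSK484 library. Between CON and NT, FTH1 was higher, and NFE2L2 and SLC7A11 were lower, by the size rule, 1 gene and 2 genes against 6.91% and 14.5% of all 13221 genes tested. Beyond counting error, 20 genes were higher and 5 lower, against 35.5% and 29.4% of all genes tested, and 53.8% and 26.3% of genes of at least 50 CPM. The median log2 fold of CPM was 0.10 over the 33 genes and 0.03 over all genes. That median was -0.0020 in TPM, where all genes were at -0.08, and -0.03 with the trend removed. Over all genes, the calls split into 914 higher and 1923 lower in CPM, 512 and 2650 in TPM, and 646 and 838 with the trend removed.

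Ranked by CPM within each gene, CON was the highest library for 23 of the 33 genes, NT for 8 and GSK484 for 2. GSK484 was the lowest library for 15 genes, CON for 4 and NT for 14. Over the 13312 measured genes, GSK484 was the highest for 24.7%, CON for 39.2% and NT for 36.1%, and GSK484 was the lowest for 26.6%, CON for 32.9% and NT for 40.5%. The order of CON and NT depended on the scale. CON lay above NT for 24 of the 33 genes in CPM, 15 in TPM and 12 with the GC and length trend removed. In TPM with the all-gene median subtracted, CON lay above NT for 25. On every scale run, 6 genes stayed above NT in CON and 6 below. The comparisons GSK484 against CON and CON against NT share the CON library, so a level peculiar to that 1 library enters both with opposite sign. NFE2L2 and FTH1 show this form, with log2 folds of 0.39 and -0.51 for NFE2L2 and -0.35 and 0.41 for FTH1. Whether CON or the other libraries stand apart in such genes cannot be told apart from culture differences with 1 library per group.

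**Figure D4:**
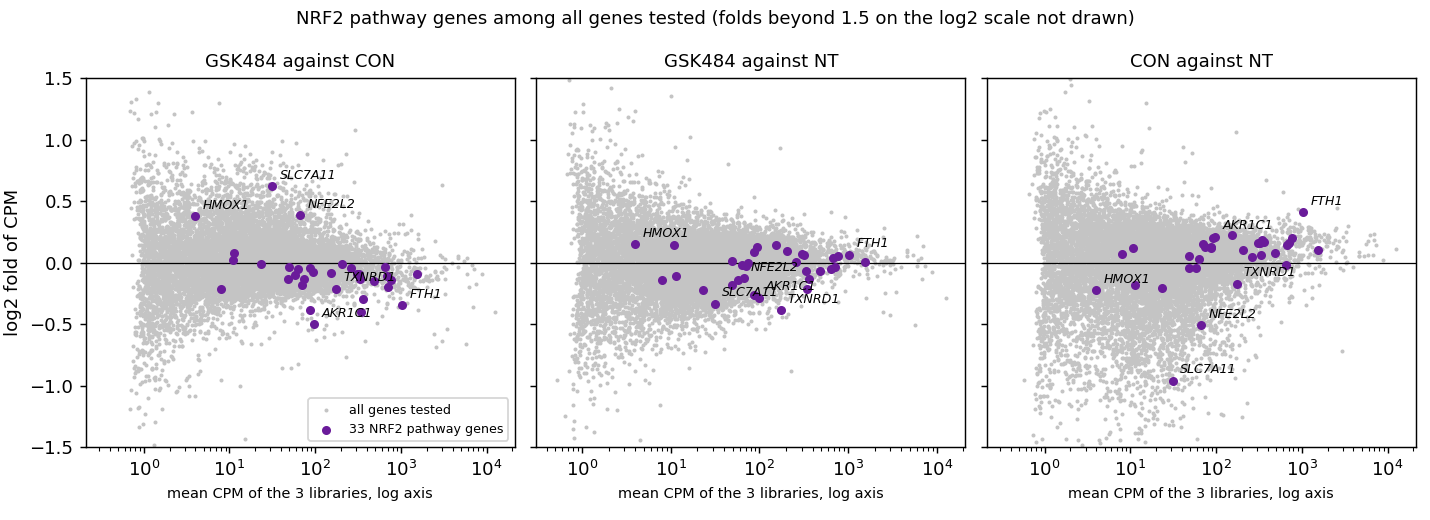
Log2 fold of CPM against the mean CPM of the 3 libraries (log axis) for all genes tested (grey) and the 33 NRF2 pathway genes (purple), with GSK484 against CON on the left, GSK484 against NT in the middle and CON against NT on the right. SLC7A11 and NFE2L2 sit at 0.62 and 0.39 in the left panel and at -0.96 and -0.51 in the right panel, and most of the other purple points lie within the grey cloud close to 0.

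Other genes of the pathway were read from separate lists, of which 88 of 91 symbols had an ID. Among 18 further regulators tested for GSK484 against CON, 1 was higher and none lower by the size rule, against 9.0% and 4.45% of all genes tested. Beyond counting error 7 were higher and 4 lower, or 38.9% and 22.2%, against 26.9% and 27.4% of all genes. The list's median log2 fold of CPM was 0.02. The gene past the size rule was BACH1, the repressor that competes with NRF2 for antioxidant response elements. BACH1 was at 2.93 TPM in GSK484, 1.87 TPM in CON and 3.64 TPM in NT, so CON was again the lowest library and NT the highest. BACH1 had a log2 fold of CPM of 0.61 for GSK484 against CON (0.47 to 0.76), -0.40 for GSK484 against NT and -1.02 for CON against NT. With the trend removed these were 0.39, -0.20 and -0.59, so the difference from NT no longer passed the size rule in GSK484, nor did it in TPM, at -0.30.

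Among 57 further target and antioxidant genes tested for GSK484 against CON, none was higher and 2 were lower by the size rule, the 2 being 3.51% of the list against 4.45% of all genes tested. Beyond counting error 2 were higher and 37 lower, or 3.51% and 64.9%, against 26.9% and 27.4% of all genes and 30.2% and 42.2% of genes of at least 50 CPM. The list's median log2 fold of CPM was -0.09, near that of the 33 genes. The 2 lower genes were GLRX, a glutaredoxin that reduces mixed disulfides of glutathione, and CYP4F3, a fatty acid hydroxylase near the 1 CPM limit. GLRX had a log2 fold of CPM of -0.48 (-0.70 to -0.27) and CYP4F3 of -0.74 (-1.26 to -0.24). In TPM the GLRX fold was -0.05, from 5.30 TPM in GSK484 against 5.48 TPM in CON, so its call did not hold there. CAT, the peroxisomal catalase, was at 46.6 TPM in GSK484, 53.5 TPM in CON and 58.3 TPM in NT, with a log2 fold of CPM of -0.30 against CON (-0.35 to -0.26) and -0.33 against NT (-0.38 to -0.28). UGT1A6, a glucuronosyl transferase, and TRIM16L were each at -0.27 against CON. For GSK484 against NT, 2 of 56 such genes were lower and none higher by the size rule, a lower share of 3.57% against 7.38% of all genes. For CON against NT 1 of 57 was lower and none higher, 1.75% against 14.5% of all genes.

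Expected counts summed to 77220120 for the GSK484 library, to 92980847 for CON and to 70555229 for NT. At these depths a count of 0 allows up to 0.0385 CPM in GSK484, 0.0329 CPM in CON and 0.0421 CPM in NT, and every NRF2 pathway gene measured lay above that. Epithelial markers differed widely in level. KRT8 was at 4062 TPM in GSK484, 3741 TPM in CON and 3922 TPM in NT, while KRT14 and TP63 lay between 8.01 and 13.8 TPM in every library. KRT19 was the lowest at 2.69 TPM in GSK484, 3.17 TPM in CON and 3.73 TPM in NT, and by the size rule it was lower in GSK484 than in CON (log2 fold of CPM -0.44) and than in NT (-0.40). The summed TPM of 10 epithelial markers was 11292 TPM in GSK484, 10224 TPM in CON and 10775 TPM in NT, and its part in the differences above was not tested. The defining markers PTPRC, CD3E, COL3A1 and DCN had no counts in any library, and VWF had 2 counts, both in CON. The level of a gene in such bulk RNA cannot separate fewer cells of a kind from less RNA per cell.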

How the data were processed

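Total RNA extracted with TRIzol went into strand-marking libraries that were sequenced as 125-base read pairs, per the labels' protocols. The authors deposited expected counts (estimated reads per gene, not always whole, not normalized) and TPM (abundance per transcript length) for each library, per the file headers. RSEM and hg19 are named in the submitters' processing notes; for the aligner, annotation and strand setting, nothing is given in the sources used here. The control compound is GSK107 in the labels but GSK106 in its table's name. Expected counts were scaled to CPM with edgeR 4.0.16 TMM factors (1.01 in GSK484, 0.98 in CON, 1.01 in NT). Log2 folds used a prior count of 0.5. Intervals were exact conditional Clopper-Pearson 95% intervals on counts rounded to whole numbers. They were run on counts simulated with counting error alone, which cannot check divided reads or differences between cultures. The intervals cover counting error only, and PCR copies were not separable. TPM folds used a pseudocount of 0.1. GC and length trends were natural splines (df 4) over 8656 genes of at least 10 CPM. GC content and AKR1C coding sequence came from GENCODE release 29. Of the 33 genes, 21 had whole counts (within 0.005) in all libraries. Every listed gene with an ID is reported. Other pathway genes named were up to 6 with the largest fold against CON beyond counting error. Members and lists were chosen with earlier results of these data known. Alternatives were other scalings (DESeq2 1.42.0, total count, TPM), priors, filters, folds and summed AKR1C counts.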

Additional observations from a re-analysis of the deposited data

How the results depend on the processing

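Leaving out a replicate was not possible with 1 library per group, and no paired analysis was possible because each group held 1 library. DESeq2 size factors, total counts, a prior count of 2, no filter and a minimum of 10 CPM kept each comparison's counts of called genes within 1.5 times and the sign of its median. With a fold of at least 1.5, GSK484 against CON had 1 higher and 0 lower gene, GSK484 against NT 0 lower, and CON against NT 0 higher and 1 lower. On deposited TPM, GSK484 against CON had 0 lower genes, with a median log2 fold of 0.0050 in place of -0.0932, and the CON against NT median was -0.0020 in place of 0.1015. The all-gene median moved with TPM, from -0.0051 to 0.0973 and from 0.0272 to -0.0829 in those comparisons. With TPM centred on the all-gene median, an alternative chosen after seeing the data, the counts were again 3 higher and 4 lower for GSK484 against CON. After removal of the GC and length trend, the GSK484 against CON median was -0.0413, GSK484 against NT had 0 lower genes, and CON against NT had 2 higher genes, ME1 and AKR1C2, with HMOX1 called lower, FTH1 and SLC7A11 no longer called, and a median of -0.0329. Over the 21 genes with whole counts, GSK484 against CON had 0 lower genes, the GSK484 against NT median was 0.0126, and CON against NT had 0 higher and 1 lower gene. That setting leaves out NFE2L2, FTH1 and the AKR1C genes by construction. The cause of the other changes was not tested. Of 99 single-gene log2 folds, 92 moved by less than counting error under DESeq2 size factors, 67 under total counts, 36 under TPM and 29 with the trend removed; no called gene changed sign.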
